A study of Mus musculus with 8 samples.

Results

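Matrilins, cartilage oligomeric matrix protein and chondroadherin are secreted proteins that join collagen fibrils, proteoglycans and cells in cartilage. The genes Matn1, Matn2, Matn3, Matn4, Comp and Chad were described here. They were measured by every probe set that the platform annotation assigns to exactly 1 symbol, that of 1 of these genes. This gave 8 of the 45101 probe sets on the array, for 6 of the 18194 genes with such a probe set, with 2 probe sets each for Matn2 and Matn3 and 1 for each other gene. All 8 lay above the signal filter, which passed 22519 probe sets, and their single-array signals ran from 952 to 31478.

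The study measured RNA of rib chondrocytes on 8 Affymetrix arrays. The cells came from the rib cages of FVB mouse embryos at E18.5, shortly before birth, which were digested with collagenase and trypsin. The 4 control samples were labelled wild type and the 4 transgenic samples Hoxc8 transgenic, and each of 4 litters, called litters 1 to 4 by their replicate number, gave 1 sample of each genotype, made from its embryos of that genotype. The promoter of the transgene, the number of transgenic lines, and the number and sex of the embryos in a sample are not given in the sources used here.

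Matrilins carry von Willebrand factor A domains and a coiled coil through which the chains assemble into oligomers. Matn1 and Matn3 are largely genes of cartilage, while Matn2 and Matn4 are also used in other connective tissues. Comp is a thrombospondin, made by chondrocytes and tendon cells, whose arms bind collagens and matrilins, and mutations of the human genes of COMP and matrilin-3 cause skeletal dysplasias with short stature or early joint disease. Chad encodes a leucine-rich repeat protein that binds collagen and cell surface integrins.

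In the RefSeq promoter table (build GRCm38.p6), 4 of the 6 genes were matched by symbol, Matn1, Matn3, Matn4 and Chad; Matn2 and Comp were not. The 250 bases before the annotated start are printed for Matn1, whose genotype difference had the smallest p of the members, and for Matn4 and Chad, which were both lowest in litter 4. For Matn4, which has 2 starts in the table, the window of the outer start is given. Capitals mark matches, on either strand, to TAAT, the core bound by many homeodomain proteins, to ACAAT, a core bound by Sox proteins, and to TATAAA, the TATA box.
Matn1, chr4:130944135-130944384, plus strand: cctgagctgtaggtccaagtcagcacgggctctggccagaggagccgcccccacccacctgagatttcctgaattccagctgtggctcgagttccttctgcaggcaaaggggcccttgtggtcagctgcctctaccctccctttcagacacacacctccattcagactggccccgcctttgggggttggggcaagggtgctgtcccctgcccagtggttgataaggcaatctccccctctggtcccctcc
Matn4, chr2:164405161-164405410, minus strand: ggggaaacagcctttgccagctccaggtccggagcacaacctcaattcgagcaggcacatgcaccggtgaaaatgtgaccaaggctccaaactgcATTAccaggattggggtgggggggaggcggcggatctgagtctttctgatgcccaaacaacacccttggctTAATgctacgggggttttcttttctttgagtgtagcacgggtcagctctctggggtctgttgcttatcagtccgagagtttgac
Chad, chr11:94564797-94565046, plus strand: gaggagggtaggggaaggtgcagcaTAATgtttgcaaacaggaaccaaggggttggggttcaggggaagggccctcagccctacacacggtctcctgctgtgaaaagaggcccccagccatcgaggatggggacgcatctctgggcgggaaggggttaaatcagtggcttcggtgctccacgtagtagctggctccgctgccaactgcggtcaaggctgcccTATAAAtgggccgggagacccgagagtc
The Matn1 window held no match to any of these 3 motifs, and the same was true of the Matn3 window, which is not printed. The window of the outer Matn4 start held 2 matches to TAAT, at 155 and 84 bases before the start, and none to the other motifs. The window of the other Matn4 start, which is not printed, held no match to any of the 3 motifs. The Chad window held 1 match to TAAT at 225 bases and 1 to TATAAA at 28 bases before the start. Of the 32851 windows of the same length in the table, 54.9% held TAAT, 27.7% held ACAAT and 12.4% held TATAAA. The matches to these motifs did not overlap in the printed windows, and a match is a description of the letters.

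Across the series, the median signal of an array ranged from 107 to 121, and any pair of arrays had a Spearman correlation from 0.924 to 0.943. Hoxc8 itself had mean signals of 3519 ± 501 (SD, n = 4) in control and 3885 ± 369 (SD, n = 4) in transgenic samples, a paired difference of 0.15 log2 (SE 0.08), and was not called (limma adjusted p = 0.9998). Which part of the gene the transgene carries is not given, so this probe set checks the genotype labels little. The 6 chondrocyte markers (Col2a1, Acan, Sox9, Col9a1, Hapln1 and Snorc) all passed the filter, the lowest with a mean signal of 4311. All 10 skeletal muscle and all 6 endothelial markers also passed the filter.

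The first question was whether the transgenic genotype, which the series' title describes as overexpressing the homeobox gene Hoxc8, went with a different level of these matrix genes. None of the 8 member probe sets was called between genotypes at an adjusted p under 0.05, nor was any of the 22519 probe sets tested (0%; limma with litter as a block, smallest adjusted p 0.989; 752 had an unadjusted p under 0.05). The differences of 5 members were negative and 3 positive, with a median of -0.03 log2, beside -0.00 over all probe sets tested, of which 51.2% were negative. Control and transgenic signals overlapped for all 8 members; over all probe sets, 0.453% were separate with transgenic samples higher and 0.568% with transgenic samples lower.

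**Figure D1:**
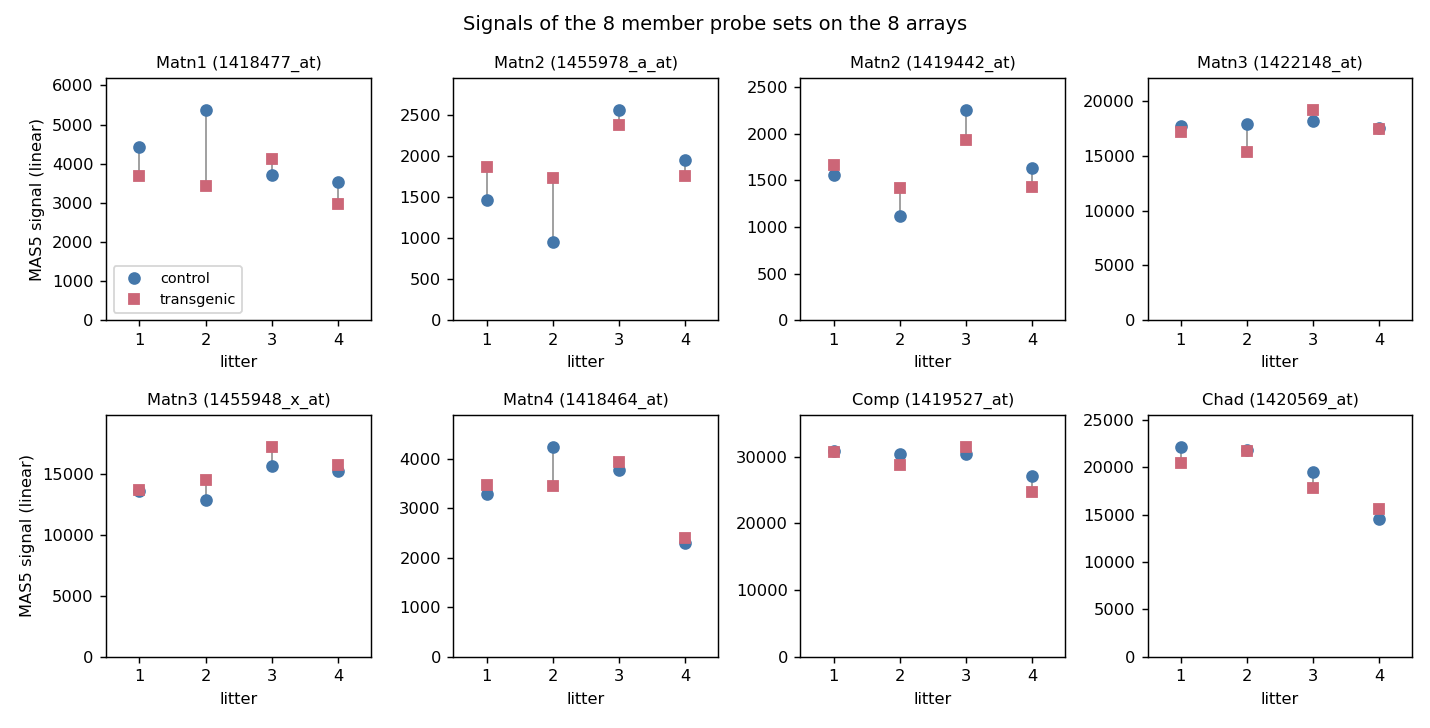
MAS5 signal on a linear axis against litter for the 8 member probe sets, 1 panel each, with control samples as circles, transgenic samples as squares and a line joining the pair of a litter. In every panel the genotypes overlap; Matn1, Matn4, Comp and Chad are lowest in litter 4 in both genotypes, and both Matn2 probe sets are lowest in litter 2.

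Matn1, the cartilage matrilin first isolated as a cartilage matrix protein, gave signals of 4437, 5373, 3705 and 3543 in the control samples of litters 1 to 4. In the transgenic samples of the same litters it gave 3680.4, 3418, 4112 and 2981. Transgenic samples were lower in litters 1, 2 and 4 and higher in litter 3, and the groups overlapped. The means were 4264 ± 835 (SD, n = 4) and 3548 ± 474 (SD, n = 4). The paired difference was -0.25 log2 (SE 0.10), a ratio of 0.839 with a 95% interval from 0.716 to 0.983. It was not called (limma, unadjusted p = 0.0324, adjusted p = 0.9998), and an unadjusted p under 0.05 was reached by 3.34% of all probe sets, of which those lower in transgenic samples made up 1.67% of all. Without the block the SE was 0.14 and the unadjusted p 0.0997 (limma), and 1.09% of all probe sets had one under 0.05. The control sample of litter 2 was the highest of the 8, and without litter 2 the difference was -0.12 log2 (limma, unadjusted p = 0.245). Without litter 3, where the sign was opposite, it was -0.39 log2 (limma, unadjusted p = 0.00246, adjusted p = 0.9999). Without litter 1 or 4 it was -0.25 and -0.26 log2 (limma, unadjusted p = 0.0635 and 0.0536). With all 4 litters, the limma unadjusted p was 0.116 with eBayes without its intensity trend and 0.0824 with array weights. The control sample of litter 2 also had the highest summed signal of the 6 chondrocyte markers, 211491. The other samples lay between 156036 and 180672. The part of this in the Matn1 value was not tested.

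Matn3, which like Matn1 is expressed mainly in cartilage, had 2 probe sets whose differences had opposite signs. The first (1422148_at) gave 17698, 17894, 18212 and 17539.5 in control samples and 17209, 15337, 19192 and 17435 in transgenic samples of litters 1 to 4. Its control samples lay close together, with a mean of 17836 ± 289.6 (SD, n = 4), and inside the range of the transgenic samples, with 17293 ± 1577 (SD, n = 4). The second (1455948_x_at) gave 13551, 12823, 15579 and 15204 in control and 13675, 14462, 17197 and 15706 in transgenic samples. It was the one member higher in transgenic samples in all 4 litters, a pattern seen in 5.2% of all probe sets, and 0 members were lower in all 4 litters (5.43% of all). The paired differences were -0.05 log2 (SE 0.07) and 0.09 log2 (SE 0.06), with intervals from -0.19 to 0.09 and from -0.04 to 0.23. The suffix of the second probe set marks probes that may also bind other transcripts. Across the 8 arrays the log2 signals of the pair correlated at r = 0.38 (Spearman 0.26), so the probe sets of this gene did not track each other closely.

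Matn2 encodes the longest matrilin, found in many connective tissues besides cartilage. Its probe set 1455978_a_at gave 1462, 952, 2566 and 1954 in control and 1875, 1733, 2383 and 1760.4 in transgenic samples of litters 1 to 4. Transgenic samples were higher in litters 1 and 2 and lower in litters 3 and 4. The other probe set, 1419442_at, gave 1562, 1119, 2257 and 1634 in control and 1666, 1424, 1932 and 1435 in transgenic samples, with the same signs in each litter. The paired differences were 0.24 log2 (SE 0.14) and 0.01 log2 (SE 0.10), neither called (limma, unadjusted p = 0.114 and 0.949). The ratio of transgenic to control in litter 2 was 1.82 and 1.27, the highest of the litters for both probe sets. Without litter 2 the differences were 0.03 and -0.11 log2 (limma, unadjusted p = 0.776 and 0.313). For 1455978_a_at the difference was 0.20 without litter 1, 0.35 without litter 3 and 0.37 log2 without litter 4. The limma unadjusted p was 0.229, 0.0429 and 0.0238 in that order, and the adjusted p was at least 0.9985 in each. The log2 signals of the 2 probe sets correlated at r = 0.92 (Spearman 0.90) over the 8 arrays.

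Matn4, a matrilin also expressed outside cartilage, gave 3289, 4243, 3772 and 2288 in control samples and 3463, 3443, 3925 and 2398 in transgenic samples of litters 1 to 4. The transgenic sample was lower in litter 2 and slightly higher in the other litters. The paired difference was -0.03 log2 (SE 0.08), with an interval from -0.20 to 0.15, and it turned to 0.07 log2 without litter 2.

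Comp, the thrombospondin of cartilage and tendon, gave 30841, 30415, 30394 and 27078 in control and 30672, 28666, 31478 and 24616 in transgenic samples. Chad, the leucine-rich repeat protein, gave 22202, 21859.5, 19563 and 14540.5 in control and 20488.5, 21770.5, 17856 and 15622 in transgenic samples. Both genes were lowest in litter 4 in each genotype, and the genotypes overlapped. The means of Comp were 29682 ± 1748 (SD, n = 4) and 28858 ± 3065 (SD, n = 4). Those of Chad were 19541 ± 3534 (SD, n = 4) and 18934 ± 2744 (SD, n = 4). The paired difference of Comp was -0.05 log2 (SE 0.06), a ratio of 0.969 with an interval from 0.886 to 1.06, and that of Chad was -0.04 log2 (SE 0.06), a ratio of 0.974 with an interval from 0.886 to 1.07.

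With litter as a block, the intervals of Comp and Chad leave out a change of the size of 1.2-fold in either direction on this scale. The same held for Matn4, both probe sets of Matn3 and 1419442_at of Matn2. Without the block the interval of Chad, from -0.34 to 0.27 log2, took in such a change. The width also depends on the intensity trend of eBayes. With the block but without this trend, the SE rose from 0.060 to 0.088 for Comp and from 0.063 to 0.091 for Chad. For Matn1 and for 1455978_a_at of Matn2 the intervals with the block were wider and reached ratios of 0.716 and 1.45. A missed threshold does not show that the genotypes had the same level.

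**Figure D2:**
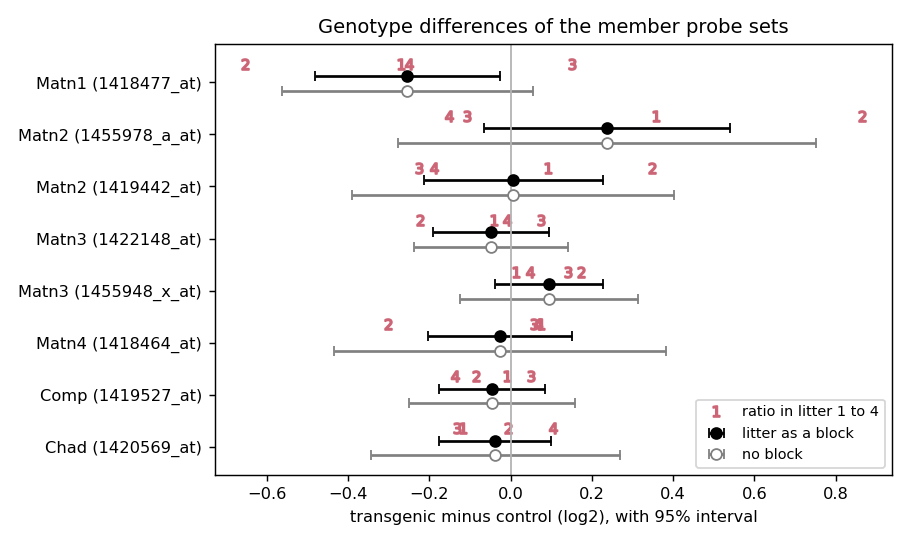
Difference of transgenic minus control on the log2 scale for the 8 member probe sets, with 95% intervals from the fit with litter as a block (filled) and without it (open); numerals give the log2 ratio within each litter. The interval of Matn1 with the block, from -0.48 to -0.03, is the one that leaves out 0, and no difference was called after adjustment.

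The litters were then compared, since each gave 2 arrays. In a model that also held genotype, limma's moderated F-test over litters passed 4 of the 8 member probe sets, against 9% of all probe sets tested. With a filter on mean signal of 500, which all 8 members cleared, 2292 of 11144 probe sets passed, a larger share. The members that passed were Matn4 (adjusted p = 0.00748), Chad (0.0103) and both probe sets of Matn2 (0.0380 for 1419442_at and 0.0466 for 1455978_a_at). Comp (0.140), Matn1 (0.254) and both probe sets of Matn3 (0.535 for 1422148_at and 0.110 for 1455948_x_at) did not pass. These calls rest on the estimate of the spread: with eBayes without its intensity trend, 0 of the 22519 probe sets passed (smallest member adjusted p 0.143 for Matn4; 4915 had an unadjusted p under 0.05).

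Matn4 and Chad had their lowest values in litter 4. The litter means of Matn4 were 3376, 3843, 3848 and 2343, so that the highest litter was 1.64 times the lowest. Those of Chad were 21345, 21815, 18709 and 15081, a range of 1.45-fold. Over the 6 pairs of litters, compared in the same model after the F-test had been seen, litter 4 was lower in Matn4 than litter 1 (-0.52 log2, SE 0.12, adjusted p = 0.0347), litter 2 (-0.70 log2, adjusted p = 0.0038) and litter 3 (-0.71 log2, adjusted p = 0.0079). In Chad it was lower than litter 1 (-0.50 log2, SE 0.09, adjusted p = 0.0154) and litter 2 (-0.53 log2, adjusted p = 0.0042). Of all probe sets, 2.82%, 10.3% and 4.59% passed between litter 4 and litters 1, 2 and 3. Without litter 4 the F-test no longer passed for either gene (adjusted p = 0.478 for Matn4 and 0.222 for Chad).

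Matn2 had another order of litters. The means of 1455978_a_at were 1668, 1343, 2475 and 1857 in litters 1 to 4, and those of 1419442_at were 1614, 1271, 2095 and 1535. Litter 3 was higher than litter 2 in both probe sets, by 0.93 log2 (SE 0.20, adjusted p = 0.0178) and 0.72 log2 (SE 0.14, adjusted p = 0.0138), where 6.48% of all probe sets passed. No other pair of litters passed for Matn2, and 7 of the 48 member contrasts passed in all. The p-values were adjusted within each pair of litters, not over the pairs together, and the pairs were fitted only with the intensity trend. Litters 2 and 3 against litter 1 gave no member call, where 0.493% and 0.0799% of all probe sets passed. The F-test adjusted p rose to 0.104 and 0.126 without litter 2 and to 0.228 and 0.286 without litter 3.

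Of the 8 members, 6 had the same lowest litter in control and transgenic samples, litter 4 for Matn1, Matn4, Comp and Chad and litter 2 for both probe sets of Matn2; this held for 41% of all probe sets. The highest litter was the same for 4 members, litter 3 for the probe sets of Matn2 and Matn3, and for 43% of all probe sets.

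**Figure D3:**
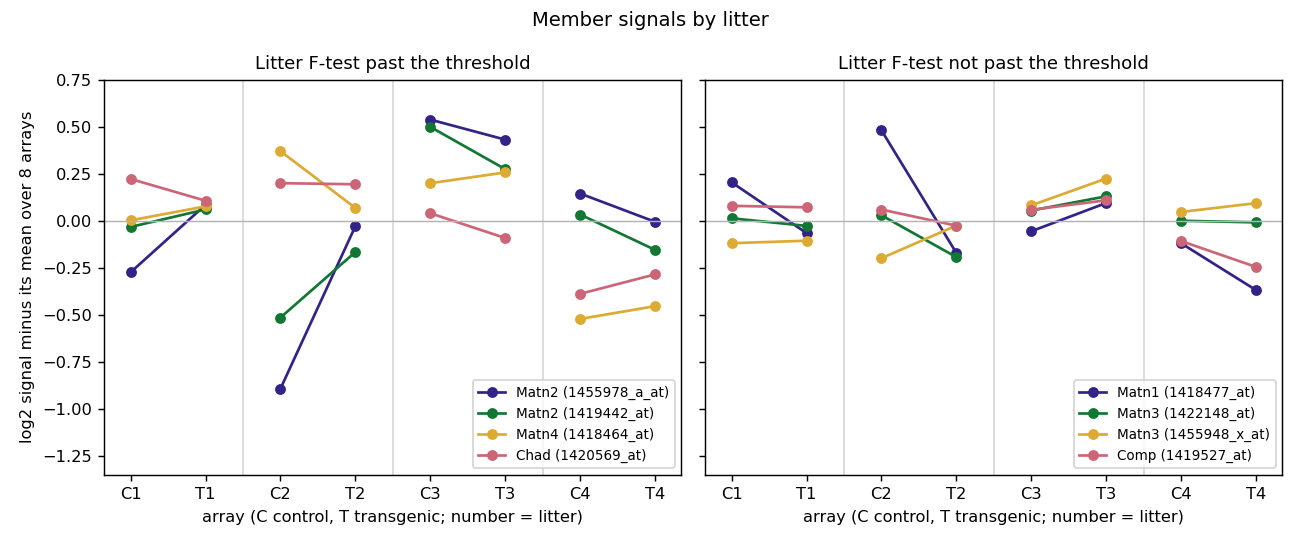
Log2 signal of each member probe set minus its mean over the 8 arrays, with arrays ordered by litter (C control, T transgenic) and a line joining the arrays of a litter; members that passed the litter F-test are on the left. Matn4 and Chad lie lowest in litter 4, and both probe sets of Matn2 lie lowest in litter 2 and highest in litter 3.

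Marker lists of cells that a rib digest can hold also moved between litters. In bulk samples fewer cells of a type and less RNA per cell cannot be told apart. The summed signal of 10 skeletal muscle markers was 37785, 27214, 28646 and 40910 in litters 1 to 4, highest in litter 4, and 5 of the 10 passed the litter F-test. That of 6 hypertrophic chondrocyte markers found on the array was 15775, 17292, 14491 and 12465, lowest in litter 4, with 3 passing. The 10 tendon and perichondrium markers summed to 172345, 168923, 183588 and 157583, with 2 passing. The brightest of them, Fmod, had litter means of 49956, 56828, 46392 and 44367 and did not pass the litter F-test (adjusted p = 0.0647). The 6 chondrocyte markers summed to 172161, 196082, 157947 and 165291, with 2 passing. The brightest of these, Col9a1 and Col2a1, did not pass, and the 2 that passed, Acan and Sox9, were lowest in litter 4. The tendon and chondrocyte sums therefore say little about the markers that passed. The erythroid sum (6 of 10 markers on the array) had the widest range over litters, 1.72-fold, with 4449.8, 3926, 2629 and 4519.6 in litters 1 to 4 and 1 of 3 tested markers passing. Most of that sum was 1 gene, Alas2, the marker that passed, with means of 3683 in control and 3226 in transgenic samples. The 6 endothelial markers summed to 1277, 1295, 1459.5 and 984, lowest in litter 4 and highest in litter 3, with 0 passing. Of the resting and periarticular chondrocyte markers 3 of 5 tested passed, and the sums of the list were 39134, 41045, 37689.7 and 41502. Nearly all of these sums was Ucma, with means of 37455 in control and 37893 in transgenic samples. Ucma did not pass the litter F-test (adjusted p = 0.302), so the sums say little about the markers that passed. The 7 macrophage markers summed to 1581, 1270.3, 1635 and 1332, with 1 of 5 tested passing, and the 5 osteoblast markers on the array to 1136, 1512, 1664 and 1213, with 0 passing. No gene of any marker list had a mean signal of 0. By genotype, the muscle sums ran from 27845 to 42036 in control and from 26583 to 39783 in transgenic samples, the hypertrophic sums from 12908 to 18393 and from 12022 to 16327, and the tendon sums from 164738 to 187966 and from 145952 to 179952. The part of these shifts in the litter differences of Matn2, Matn4 and Chad was not tested. The labels do not say whether litters were dissected or hybridised apart, so litter and such steps cannot be told apart.

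The partner genes of these proteins in cartilage matrix were taken from 7 lists of 86 genes. Of these, 76 were tested, 0 rose and 0 fell between genotypes (0% of all 10989 genes were called; limma smallest adjusted p over all probe sets 0.989). Differences were positive for 29 and negative for 47, with a median of -0.03 log2, beside 0.00 over all genes, of which 50.7% were positive. In all 4 litters 5 were lower and 1 was higher in transgenic samples, where 4.93% and 5.76% of all genes were.

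Among 10 collagens that matrilins and COMP bridge, 3 differences were positive and 7 negative. Col9a2, a chain of the collagen that decorates cartilage fibrils, averaged 14028 ± 4438 (SD, n = 4) in controls, 16566 ± 3584 (SD, n = 4) in transgenics, and was higher in 4 of 4 litters (0.27 log2, SE 0.10). Col2a1, the main fibrillar collagen, stood at -0.18 log2 and was lower in 4 of 4 litters. The median over the 14 proteoglycans and link proteins was 0.01 log2, with Omd at 0.07 and Vcan, the gene of versican, at -0.10, although 2 of the 3 tested probe sets of Vcan had the opposite sign. The 4 other thrombospondins all stood below 0, with a median of -0.06 log2; Thbs2 stood at -0.11 and Thbs1 at -0.04, and 2 of 3 and 1 of 2 probe sets of these genes had the opposite sign.

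Of 12 other cartilage matrix proteins 5 were positive and 7 negative. Cytl1, a secreted chondrocyte protein, was lower in 4 of 4 litters (-0.36 log2, SE 0.10; limma, unadjusted p = 0.00357, adjusted p = 0.9998), with Tnc, the gene of tenascin-C, at -0.16. For 12 receptors the median was -0.03 log2. Itgav, an integrin chain, stood at 0.20, though 1 of its 2 probe sets was negative, and Cd47, a thrombospondin receptor, at -0.18. The 12 transcription factors had a median of -0.10 log2, with 4 positive and 8 negative. Sox5, a partner of Sox9, stood at -0.20, though 2 of its 5 probe sets were positive. Zfp219 stood at -0.40 (SE 0.17) and was higher in transgenic samples in 1 of 4 litters. Its signals were dim, at 307 ± 54 (SD, n = 4) in control and 228 ± 54 (SD, n = 4) in transgenic samples. For 12 proteases and inhibitors the median was -0.03 log2, with the collagenase gene Mmp13 at 0.42 (SE 0.25) and Htra1, a serine protease gene of whose 2 probe sets 1 was negative, at 0.17. Mmp13 was dim, at 131 ± 44 (SD, n = 4) in control and 190 ± 97 (SD, n = 4) in transgenic samples, and higher in 2 of 4 litters. No gene of these lists was called.

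**Figure D4:**
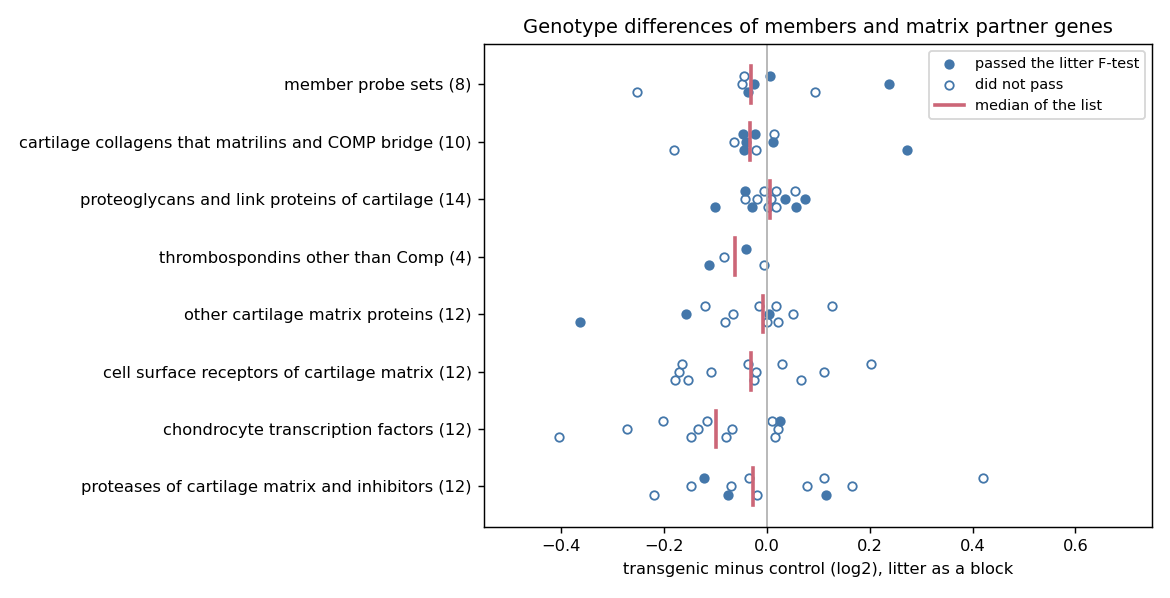
Transgenic minus control on the log2 scale, from the fit with litter as a block, for the 8 member probe sets and for the 76 tested partner genes in 7 lists (number tested in brackets); filled points passed the litter F-test, and the bar is the median of a list. Medians lie between -0.10 and 0.01, and no point was called between genotypes.

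Between litters, 21 of the 76 partner genes passed the F-test, against 9.91% of all genes. A larger share passed among bright probe sets, as given above, and the share among genes of like signal was not worked out. By list, 6 of 10 collagens passed, 6 of 14 proteoglycans and link proteins, 2 of 4 thrombospondins, 3 of 12 other matrix proteins, 0 of 12 receptors, 1 of 12 transcription factors and 3 of 12 proteases and inhibitors. Like the members, these calls came from the fit with an intensity trend, without which no probe set passed. The lowest mean was in litter 4 for 13 of the 21, and in litter 2 for 6. Among all probe sets past this test, 45.3% were lowest in litter 4 and 27.7% in litter 2.

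The partner genes named next were chosen after their values were seen, most because their lowest litter was that of a member. Lowest in litter 4, as were Matn4 and Chad, was Chadl, the gene of the chondroadherin-like protein, with litter means of 4714, 4978, 3737 and 2507 (adjusted p = 0.00135). Sox9, the master regulator of chondrocytes, had 5269.7, 5392, 3527 and 3057 (adjusted p = 0.00101), and Acan, the aggrecan gene, had 28769, 31329.8, 27682 and 21636 (adjusted p = 0.0111). The other chondrocyte markers had another order: Hapln1 and Snorc were highest in litter 4, and Col2a1 and Col9a1 lowest in litter 3. None of these passed the F-test. Omd, of the proteoglycan list, passed it (adjusted p = 0.0107) and was highest in litter 4. Lowest in litter 2 and highest in litter 3, as was Matn2, were Prelp, with 4687, 3037, 6083 and 3686 (adjusted p = 0.000748), Tnc, with 3752, 2810.0, 6463 and 3766 (adjusted p = 0.000935), and Cytl1, with 5403, 2351, 12968 and 10400.1 (adjusted p = 3.13e-05). The range of Cytl1 over litters was 5.52-fold, where that of the members ran from 1.13-fold (1422148_at of Matn3) to 1.84-fold (1455978_a_at of Matn2).

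Correlations of log2 signals over the 8 arrays describe which members moved alike; the arrays of a litter are not independent, and all arrays were scaled to the same mean, so no test was made. Between genes, the highest were Matn4 and Comp at r = 0.85 (Spearman 0.60), 1455978_a_at of Matn2 and 1455948_x_at of Matn3 at 0.81 (0.76), Matn4 and Chad at 0.78 (0.40), and Matn1 and Comp at 0.71 (0.76). Matn1 and Matn4 stood at 0.69 (0.67), and Comp and Chad at 0.69 (0.50). The lowest were 1455948_x_at of Matn3 and Chad at -0.64 (Spearman -0.79) and Matn1 and 1455978_a_at of Matn2 at -0.61 (-0.24). For the pairs of Matn4 with Comp and with Chad the rank correlation was lower than r.

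For each member gene, represented by its brightest probe set, the 3 genes most like it among 10983 others were found by r over the 8 arrays. For Comp they were Ap5b1 (r = 0.99), Sdc3, the gene of the proteoglycan syndecan-3 (0.99), and Snx3 (0.98). For Chad they were Zfp516 (0.98), Nfic, a nuclear factor I gene (0.98), and Ddit4l (0.97), and for Matn4 Slc1a4 (0.98), Rbm33 (0.97) and Rnpepl1 (0.97). For Matn1 they were Rubcn (0.97), Ubl7 (0.94) and Slc37a4 (0.93), for Matn2 Ankib1 (0.97), the mast cell protease gene Cpa3 (0.97) and Dennd4c (0.96), and for Matn3 Enpep (0.97), Tiam2 (0.93) and Srgn (0.93). Spearman correlations of these 18 pairs lay between 0.67 and 0.98. These are the highest of 10983 values each, over arrays that share litters.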

How the data were processed

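RNA of 4 control and 4 transgenic rib chondrocyte samples was measured on Affymetrix arrays. The deposited values are intensity signals per probe set on a linear scale, made with MAS5 per the submitters' processing notes (version not given in the sources used here). The mean of each array after trimming 2% at each end was 500, so the arrays had been scaled to 1 target before deposit. Detection calls were not used here, and precision is limited by having 8 arrays.

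The scale was log2(signal + 22.2), where 22.2 is the 20th percentile of all values, so differences of dim genes are understated. After 64 control probe sets were left out, probe sets with a mean of at least 110.03, their median, were tested with limma 3.58.1 in R 4.3.3 (eBayes with intensity trend, two-sided, Benjamini-Hochberg over 22519 probe sets, threshold 0.05). Litter was a fixed block in the genotype comparison, since the labels tie each replicate number to a litter. For litters 1 to 4, the 2 arrays' deviations from the mean of their genotype had correlations of 0.0251, 0.434, 0.376 and 0.379, so the pairing was not seen for litter 1. Intervals are 95% confidence intervals. Differences between litters were tested with the moderated F-test.

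Symbols come from the platform annotation of 34945 probe sets with 1 symbol; 932 had several and 9160 none. A gene of a list was represented by its tested probe set with the highest mean. Named are all members, Hoxc8, the 2 partner genes with the smallest unadjusted p in each list, and the 3 genes most like each member. Chadl, Sox9, Acan, Prelp and the litter results of Tnc, Cytl1, Omd, Hapln1, Snorc, Col2a1, Col9a1 and Fmod were added after their values were seen. Samples of a group came from separate litters. The members and lists were chosen with earlier results of these data known. The steps were tested on simulated data.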

Additional observations from a re-analysis of the deposited data

Results flagged for a closer look

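The distance of an extreme sample from the next one was divided by the range of its group of 4, for the 8 member probe sets and Hoxc8. Of 18 groups of values, 1 had a sample that stood apart, where chance gives about 0.9. This was Comp in the control sample of litter 4, with a signal of 27078.3, while the next lowest control sample had 30393.9. The transgenic sample of that litter was also the lowest of its group, at 24616.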

How the results depend on the processing

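Under 14 alternatives each (no block, offsets of 1 and 100, no filter and a filter of 500, quantile normalization, median centring, eBayes without trend or robust, array weights, leaving out each litter), 0 probe sets were called between genotypes, and of 112 member differences 0 passed (limma smallest adjusted p 0.9985) and 107 kept their sign. Without the replicate block 0 probe sets and 0 partner genes were called, 246 probe sets had an unadjusted p under 0.05, and Matn1 stayed at -0.25 log2; the block changed no call. With every probe set of the partner genes 0 were called. The 5 of opposite sign were 1419442_at of Matn2 with array weights (-0.017), and values without 1 litter, which ran from -0.11 to 0.083 for this probe set, from -0.090 to 0.0088 for 1422148_at of Matn3 and from -0.059 to 0.066 for Matn4. Hoxc8 stayed positive, from 0.05 to 0.20.

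The litter F-test depended more on the settings. Probe sets passing were 2027 as reported, 995 with no filter, 2292 with a filter of 500, 0 with eBayes without trend and 562 to 3047 without 1 litter. With no filter the adjusted p was 0.0510 for Chad, 0.0807 for 1419442_at and 0.114 for 1455978_a_at of Matn2, none past the threshold. With eBayes without trend it was 0.143 for Matn4, 0.172 for Chad, 0.198 for 1419442_at and 0.229 for 1455978_a_at. For 1455978_a_at it was 0.0504 with offset 1, 0.0570 with quantile normalization and 0.0801 with robust eBayes. Quantile normalization and median centring brought Comp (0.0211 and 0.0422) and 1455948_x_at of Matn3 (0.0416 and 0.0370) past the threshold. Without 1 litter it ran from 0.0025 to 0.478 for Matn4, 0.0111 to 0.222 for Chad, 0.0165 to 0.286 for 1419442_at and 0.0174 to 0.228 for 1455978_a_at. The cause of these changes was not tested. For the F-test, the eBayes settings and array weights, and the pairs of litters, were chosen after seeing the data.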
